A study of Mus musculus with 31 samples.

Results

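Wild-type mouse ovaries at 16 days post coitum (dpc) were set against wild-type ovaries at 14 dpc, with 3 arrays at each age and so 6 of the 31 arrays in the study. The members are the arrays whose labels give a wild-type genotype, an ovary and one of these ages. The study profiled whole fetal gonads of both sexes from wild-type and Wv/Wv embryos at 12, 14 and 16 dpc on Affymetrix arrays. Wv is a loss-of-function allele of Kit, the receptor that germ cells need to survive and to settle in the gonad, and homozygous gonads are poor in germ cells. For comparison, 3 arrays each were used of Wv/Wv ovaries at 16 and 14 dpc and of wild-type testes at 16 and 14 dpc, and 2 arrays of wild-type ovaries at 12 dpc are given as an earlier level. The arrays of a group are titled as biological replicates. How many embryos went into each is not given in the labels, and p-values here weigh a difference against the spread between arrays within the 12 groups of the study, pooled over all 31. Wild-type groups carried no mutation or treatment named in the labels.

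Germ cells that colonise a fetal ovary first divide as oogonia and keep part of the pluripotency programme of primordial germ cells. Retinoic acid and BMP signals then induce Stra8, and the cells leave mitosis for the prophase of the first meiotic division. In this prophase chromosomes are broken by Spo11, telomeres attach to the nuclear envelope, homologues pair and recombine, and the synaptonemal complex zips them together. The comparison of 16 with 14 dpc therefore asks what changes in the ovary while its germ cells advance through this prophase.

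All values are log2 signals, and a difference is the mean at 16 dpc minus the mean at 14 dpc with its standard error (SE) from a limma fit. A gene was called where its Benjamini-Hochberg adjusted p was below 0.05 over the 18194 genes tested. Of these genes, 65 were called (0.357%), while 2918 had an unadjusted p below 0.05. The 50 that fell (0.275%) were led by pluripotency and primordial germ cell genes, and the 15 that rose (0.0824%) held genes of synapsis, telomere attachment and recombination, the oocyte factor Figla and a pair of matrix genes. The called falls ranged between -3.90 and -0.73 and the called rises between 0.95 and 2.41, beside a median of -0.07 over all genes. The split of higher against lower calls moved with the scaling, to 88 and 142 after cyclic loess, 76 and 92 after quantile normalization, and 12 and 89 after centring on housekeeping genes, which shifted the median of all genes to 0.09. In whole ovaries, fewer cells of a type and less RNA per cell cannot be told apart.

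The 6 arrays are not alike, which bears on every result below. All 3 arrays at 16 dpc and array 1 at 14 dpc belonged to a class of 10 arrays with a narrower spread of values (SD over probe sets 1.77 to 2.18), whereas arrays 2 and 3 at 14 dpc were among 21 arrays with a wider spread (2.33 to 2.39). The Gapdh probe sets at the 3′ end exceeded those at the 5′ end by 0.94, 0.63 and 0.65 on the 16 dpc arrays, against 0.53, 2.01 and 2.11 on the 14 dpc arrays. Within the narrower class only array 1 remains at 14 dpc, so a difference of the 16 dpc mean from that array alone is given below as a value with no test. Array 2 at 16 dpc lay closest to 14 dpc. It was the highest 16 dpc array for 50 of the 50 called falls, against 63.9% of all genes with a negative difference, and the lowest for 13 of the 15 called rises, against 43.2% of all genes with a positive one. At 14 dpc the narrower array 1 was the lowest for 46 of the 50 called falls, a count given without its share over all genes. Without array 2 of 16 dpc, 236 genes were called, 66 higher (0.363%) and 170 lower (0.934%). That array was singled out because it lay closest to 14 dpc. Leaving it out therefore tends to enlarge differences, and results without it, here and below, are no test of them. A fit with a term for the class, which leaves out array 1 of the 16 dpc testes (the narrowest spread of all, 1.77), called 99 genes higher (0.544%) and 131 lower (0.72%), among them 64 of the 65. That testis array carries weight even outside the comparison, since leaving it out with no class term gave 239 calls, 76 higher and 163 lower. The class term with all arrays called 114 genes and kept 56 of the 65, the class term on ovaries only called 2 and kept both, and with limma 0 were called on narrow-spread arrays only (828 at an unadjusted p below 0.05) or on only the arrays compared (5320). Without array 1 or without array 3 of 16 dpc 2 genes were called each time, and without array 1, 2 or 3 of 14 dpc the counts were 161, 8 and 2. Markers of the labelled tissue were present: Foxl2, a transcription factor of granulosa cells, stood at 9.98, 9.62 and 9.95 at 16 dpc and at 9.87, 9.34 and 9.47 at 14 dpc, while all 5 measured Y chromosome genes were below 6.28, the 40th percentile of all values, on the 6 arrays.

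The pluripotency and primordial germ cell genes were the list with most calls. Of 34 measured members 14 fell and 0 rose, with a median difference of -1.60. This median was -0.83 against the narrower 14 dpc array alone and -1.17 in the class-adjusted fit. Sox2, a pluripotency transcription factor, gave 3.56, 7.76 and 3.56 on arrays 1 to 3 at 16 dpc, against 7.95, 9.53 and 9.10 at 14 dpc. The groups did not overlap, although array 2 at 16 dpc came within 0.2 of the lowest 14 dpc array. The difference was -3.90 (SE 0.73, limma adjusted p = 0.0166), and it was -5.30 without array 2 and -2.99 against the narrower 14 dpc array alone. Sox2 had been at 7.76 and 8.71 on the 12 dpc arrays.

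Pou5f1, which encodes the pluripotency factor Oct4, averaged 6.50 ± 1.61 at 16 dpc and 9.38 ± 0.31 at 14 dpc (SD, n = 3 each). Its arrays read 5.84, 8.34 and 5.33 at 16 dpc, against 9.05, 9.67 and 9.43 at 14 dpc, and the difference was -2.88 (SE 0.51, limma adjusted p = 0.0126). Again arrays 1 and 3 lay far below the 14 dpc arrays and array 2 lay nearer to them. Nanog, the third of the core pluripotency factors, was low throughout but tight, with 3.67, 4.53 and 3.93 at 16 dpc against 5.61, 5.63 and 5.84 at 14 dpc. Its difference of -1.65 had an SE of 0.23 and a limma adjusted p of 0.00195, the smallest of the called falls. All 6 Nanog values were below the 40th percentile, so the difference may not measure the size of the change.

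The promoter of Nanog is shown because it carries the composite site for the products of the other two core factors, which fell beside it. The 200 bases before its start, at chr6:122707289-122707488 on the plus strand (RefSeq, GRCm38.p6), are given in the 5′ to 3′ direction with the match to CATTGT, 1 free base and ATGCAAA in capitals, here on the opposite strand.
Nanog: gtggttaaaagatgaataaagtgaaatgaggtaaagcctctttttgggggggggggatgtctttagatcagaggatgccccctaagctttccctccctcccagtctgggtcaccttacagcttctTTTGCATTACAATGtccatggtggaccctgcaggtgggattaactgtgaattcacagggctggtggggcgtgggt
The motif was chosen for this gene, and in the 250 bases before the start it was found on either strand for 1 of 27025 genes in the promoter table. The match describes the sequence and does not show binding in these ovaries.

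Factors that set up the primordial germ cell state fell as well. Prdm14, a regulator of germ cell specification, read 3.17, 4.25 and 3.58 at 16 dpc, against 4.59, 7.17 and 6.91 at 14 dpc (difference -2.56, SE 0.42, limma adjusted p = 0.00903). Much of that distance came from the wider-spread arrays, since it was -0.92 against the narrower 14 dpc array alone. Tfap2c, its partner in specification, read 4.32, 7.20 and 4.92 against 7.42, 9.61 and 9.81 at 14 dpc (-3.46, SE 0.62, limma adjusted p = 0.0133). The other probe sets of Tfap2c differed by -0.90 and -0.20. Prdm1, the third of these factors, was not called, with 5.62, 6.15 and 4.80 at 16 dpc against 6.12, 7.45 and 7.56 at 14 dpc (-1.52, limma adjusted p = 0.0653).

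Lin28a, an RNA-binding protein that blocks let-7 maturation, read 5.25, 8.25 and 5.41 at 16 dpc, against 9.00, 9.78 and 9.94 at 14 dpc. Its difference was -3.27 (SE 0.55, limma adjusted p = 0.0106), and a second probe set of the gene differed by -1.58. Trim71, a target of let-7, read 5.33, 6.08 and 5.71 against 6.42, 8.55 and 8.58 at 14 dpc and missed the threshold (-2.14, limma adjusted p = 0.0572). The paralogue Lin28b differed by 0.21 (limma adjusted p = 0.429).

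Genes named for developmental pluripotency association moved together. Dppa2 read 4.03, 5.46 and 4.00 at 16 dpc and 6.94, 7.55 and 7.71 at 14 dpc (-2.90, SE 0.43, limma adjusted p = 0.00373). Dppa4, which lies beside it on chromosome 16 and whose product pairs with that of Dppa2 on chromatin, read 5.72, 8.02 and 5.59 at 16 dpc and 8.67, 9.13 and 9.19 at 14 dpc (-2.56, SE 0.52). Dppa3, a maternal factor that protects DNA methylation in the egg, read 6.12, 9.57 and 6.28 at 16 dpc, against 10.16, 10.02 and 9.76 at 14 dpc (-2.66, SE 0.56). Array 2 of 16 dpc thus stood within 0.2 of the lowest 14 dpc array for Dppa3, and the other arrays more than 3 log2 units below. Dppa5a, an RNA-binding protein of early embryos and germ cells, differed by -2.99 (SE 0.65). The limma adjusted p of these genes lay between 0.00373 and 0.0366.

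Rhox6 and Rhox9, homeobox genes of the reproductive cluster on the X chromosome, differed by -2.36 and -2.30, and Rhox5 of the same cluster, which was in no list, by -3.01 (SE 0.61, limma adjusted p = 0.0262). Rhox5 read 6.88, 10.61 and 7.07 at 16 dpc against 10.98, 11.61 and 11.01 at 14 dpc. Since Rhox genes are close copies of each other, their probe sets may share signal. Tcl1, a coactivator of Akt, differed by -2.15 and L1td1, an RNA-binding protein derived from a transposon, by -1.66. Members of the list without a call include Kit itself, at 7.05, 8.06 and 6.81 at 16 dpc against 8.37, 9.93 and 9.79 at 14 dpc (-2.06, limma adjusted p = 0.111), Sall4 (-2.37, limma adjusted p = 0.14) and Zfp42 (-1.32, limma adjusted p = 0.134). A second probe set of Kit differed by 0.007 (SE 0.27), so the probe sets of Kit disagree. Esrrb had the largest positive difference of the list, 1.20 (limma adjusted p = 0.259). Without array 2, 21 members were called lower and 1 higher, and in the class-adjusted fit 16 were called lower and 0 higher. The list had 1 call without array 1 or array 3 of 16 dpc or array 3 of 14 dpc, and 2 without array 2 of 14 dpc or with the class term on ovaries only. With limma it had 0 on only the arrays compared and on narrow-spread arrays only.

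**Figure D1:**
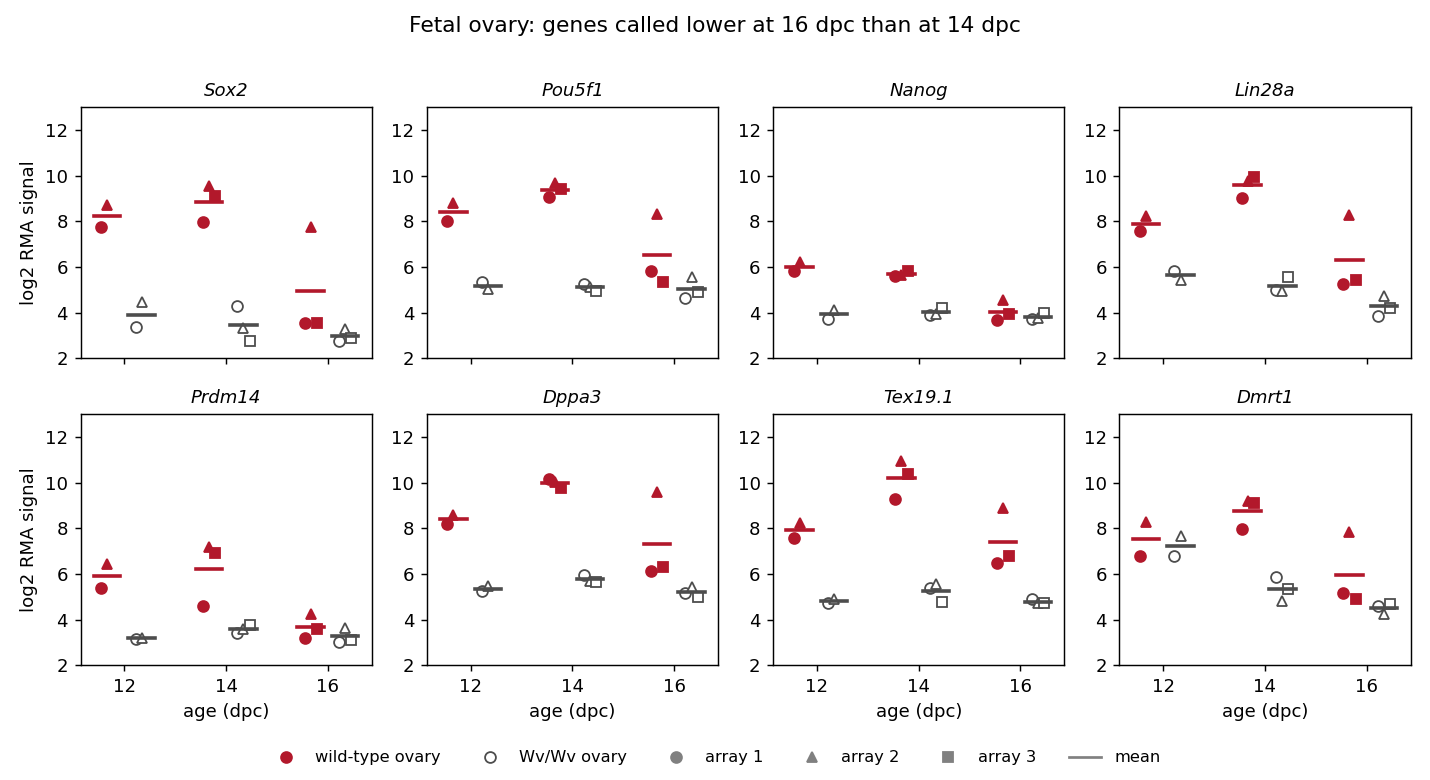
Log2 signal of 8 genes called lower at 16 dpc, by age in dpc, on each wild-type ovary array (filled red) and each Wv/Wv ovary array (open grey), with array number as marker and horizontal lines at the means. Array 2 is the highest 16 dpc array in wild type for each gene; for Sox2 it lies at 7.76 and arrays 1 and 3 lie at 3.56.

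Genes that act with RNA in germ cells fell in 3 of 24 measured members of the RNA regulator and piRNA list, and 0 rose (median -0.44). Tex19.1, which restrains retrotransposons and supports meiosis, read 6.46, 8.90 and 6.79 at 16 dpc, against 9.29, 10.93 and 10.36 at 14 dpc (-2.81, SE 0.54, limma adjusted p = 0.019). Its neighbour and paralogue Tex19.2, on chromosome 11 as well, differed by -1.45 (SE 0.31), and close copies may share probe signal. Dnd1, which guards germ cell transcripts against miRNAs, read 5.78, 7.19 and 6.07 against 7.54, 8.04 and 8.16 at 14 dpc (-1.57, SE 0.30, limma adjusted p = 0.0166). Tdrd12, a Tudor-domain helicase of the piRNA pathway, differed by -1.60 (SE 0.33, limma adjusted p = 0.0272).

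Other germ cell RNA regulators were not called. Of the 24 members 17 had a negative difference, beside 9915 of all 18194 genes. For 6 members the 16 dpc arrays lay below the 14 dpc arrays without overlap, which held for 16.2% of all genes. Piwil2, of the piRNA pathway, differed by -1.55 (limma adjusted p = 0.109) and Tdrd9 of the same pathway by -1.21 (limma adjusted p = 0.151). Dazl, an RNA-binding protein of germ cells, read 11.78, 12.80 and 11.46 at 16 dpc against 12.77, 12.52 and 12.27 at 14 dpc (-0.51, limma adjusted p = 0.596). Mael, a piRNA pathway protein, read 10.07, 10.45 and 10.20 against 10.26, 11.12 and 10.44 (-0.37, limma adjusted p = 0.623). Ddx4, the germ cell helicase also called Vasa, read 9.48, 10.58 and 9.36 against 10.62, 11.66 and 11.32 at 14 dpc (-1.40, limma adjusted p = 0.317). The arrays of Ddx4 at the 2 ages did not overlap. Of the 12 general germ cell markers 3 fell and 0 rose. The 3 were Pou5f1, Dppa3 and Dnd1, already counted in the lists above, so this is no separate reading of germ cell content. With them included, the mean level of the markers lay between 8.38 and 9.35 on the 16 dpc arrays and between 9.34 and 9.85 on the 14 dpc arrays. The part of germ cell content in the other falls was not tested.

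Further called falls outside these lists included Phlda2, an imprinted gene with a pleckstrin-homology domain, which read 5.60, 8.33 and 5.58 at 16 dpc against 9.28, 9.24 and 9.17 at 14 dpc (-2.73, SE 0.44, limma adjusted p = 0.00877). Dmrt1, a transcription factor of Sertoli cells and also of germ cells, was the 1 called member of the Sertoli list. It read 5.15, 7.85 and 4.92 at 16 dpc, against 7.96, 9.17 and 9.10 at 14 dpc (-2.77, SE 0.59, limma adjusted p = 0.0323), and Sox9, the defining Sertoli factor, was between 6.21 and 6.74 at 16 dpc and between 5.19 and 6.48 at 14 dpc, around the 40th percentile of all values. Dusp9, a phosphatase of MAP kinases on the X chromosome, differed by -2.59 and Gldc, a glycine cleavage enzyme, by -1.87. Apex1, a base excision repair endonuclease, had the smallest called fall, 10.94, 11.15 and 11.06 at 16 dpc against 11.61, 11.86 and 11.88 at 14 dpc (-0.73, SE 0.15, limma adjusted p = 0.0234), and array 2 lay close to the other 16 dpc arrays there. The fall of Apex1 was not called after cyclic loess (-0.38, limma adjusted p = 0.379), quantile normalization (-0.46) or housekeeping centring (-0.58). For 16 of the 50 falls all 16 dpc arrays were below the 40th percentile of all values, so those differences may not measure the size of the change.

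Synapsis and telomere attachment genes rose in 3 of 12 measured members, with 0 falls and a median of 0.97. Terb1, which ties telomeres to the nuclear envelope together with Terb2 and Majin, read 9.97, 9.09 and 9.78 at 16 dpc, against 8.46, 8.23 and 6.51 at 14 dpc. Its difference was 1.88 (SE 0.33, limma adjusted p = 0.0126), and a second probe set differed by 1.61 without passing the threshold (limma adjusted p = 0.0523 over every probe set). Majin, its membrane-anchoring partner, was 8.28, 8.27 and 8.28 at 16 dpc against 7.12, 7.74 and 6.20 at 14 dpc (1.26, SE 0.24, limma adjusted p = 0.0166). The 3 values of Majin at 16 dpc were almost equal, array 2 included, whereas those at 14 dpc spread over more than 1 log2 unit. After cyclic loess Majin differed by 1.03 and was not called. Terb2, the other partner, differed by 0.09 (limma adjusted p = 0.823).

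The gene listed as 4930447C04Rik, known as Six6os1, encodes a protein of the central element of the synaptonemal complex. It read 11.37, 10.39 and 11.52 at 16 dpc, against 9.83, 9.72 and 8.64 at 14 dpc (1.70, SE 0.33, limma adjusted p = 0.019). Of its other probe sets 1 differed by 1.01 and 1 by -0.82, so the gene's probe sets disagree. Sycp1, the transverse filament of the complex, read 10.16, 9.34 and 10.23 against 8.82, 9.07 and 8.04 at 14 dpc without overlap, and narrowly missed the threshold (1.27, limma adjusted p = 0.0626). Syce3, a central element protein, missed it as well (1.62, limma adjusted p = 0.0997), and Syce1, Syce2 and Tex12 of the same structure differed by 0.20, 0.37 and 0.82 without a call. Trip13, an ATPase that removes Hormad proteins from synapsed axes, had the only negative difference below -1 in the list (-1.32, limma adjusted p = 0.268). Without array 2 of 16 dpc, the array closest to 14 dpc, 6 members of the list were called higher and 0 lower, among them Sycp1 (1.55) and Syce3 (2.13). In the class-adjusted fit 3 were called higher. Array 3 of 14 dpc was the lowest 14 dpc array for 12 of the 15 called rises, a count given without its share over all genes. Without array 1 or array 3 of 16 dpc, or without array 3 of 14 dpc, none of this list was called.

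The promoters of Terb1, 4930447C04Rik and the falling gene Tex19.1 are shown as examples of a sequence feature common in meiotic genes. GCGGGA is the core letter string of E2F sites and CACGTG the E-box read by dimers of Max. E2f6, Max and Mga are subunits of a repressive Polycomb complex that keeps many germ cell genes silent in other cells. Each stretch holds the 200 bases before the start (RefSeq, GRCm38.p6), written along the gene from 5′ to 3′ with the match on either strand in capitals. Terb1 lies at chr8:104509888-104510087 on the minus strand, 4930447C04Rik at chr12:72917766-72917965 on the minus strand and Tex19.1 at chr11:121145943-121146142 on the plus strand.
Terb1: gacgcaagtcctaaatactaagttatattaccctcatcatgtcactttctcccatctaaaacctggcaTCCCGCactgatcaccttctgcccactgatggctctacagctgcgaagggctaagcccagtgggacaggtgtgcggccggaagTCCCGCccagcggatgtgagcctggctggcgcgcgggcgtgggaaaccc
4930447C04Rik: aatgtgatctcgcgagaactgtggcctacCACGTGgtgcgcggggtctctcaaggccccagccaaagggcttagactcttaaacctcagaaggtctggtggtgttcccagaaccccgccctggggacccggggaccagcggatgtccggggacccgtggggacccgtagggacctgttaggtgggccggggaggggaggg
Tex19.1: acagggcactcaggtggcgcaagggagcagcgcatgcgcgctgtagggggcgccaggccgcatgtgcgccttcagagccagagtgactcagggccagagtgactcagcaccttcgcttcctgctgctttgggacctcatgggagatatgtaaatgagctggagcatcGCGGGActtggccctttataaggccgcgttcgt
In the 250 bases before any start of a gene, GCGGGA was found for 26 of 48 genes of the axis, recombination, synapsis and crossover lists that have a promoter in the table (54.2%), beside 28% of the tested genes and 18.8% of all genes there. The shares were 3 of 10 for the called rises and 8 of 34 for the called falls. CACGTG was found for 11 of the 48 (22.9%), beside 8.73% of the tested genes, for 2 of the 10 rises and for 2 of the 34 falls. Both kinds of promoter thus occur among genes that rose and among genes that fell, and a match says nothing on whether a factor is bound. E2f6, Max and Mga were not called, with differences of -0.78, -0.08 and -0.62 (limma adjusted p between 0.306 and 0.861).

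Break formation and recombination genes rose in 1 of 22 measured members, with 0 falls and a median of -0.23, which was -0.02 after cyclic loess and of opposite sign after quantile normalization, at 0.11. In both of those 2 members were called higher and 1 lower. The gene called higher, Meiob, had the largest difference among the 15 called rises as measured. Its product binds single-stranded DNA with Spata22 and stabilises recombination intermediates. Meiob read 8.39, 7.05 and 8.24 at 16 dpc, against 5.67, 6.23 and 4.53 at 14 dpc and 2.90 and 2.96 at 12 dpc. All 3 values at 14 dpc were below the 40th percentile of all values, as they were for 5 of the 15 called rises, so those differences may not measure the size of the change. The difference was 2.41 (SE 0.31, limma adjusted p = 0.000936), it was 2.22 against the narrower 14 dpc array alone, and 2.83 without array 2. Spo11, the nuclease-like protein that makes the breaks, read 8.07, 7.23 and 8.61 against 7.21, 7.83 and 7.02 at 14 dpc (0.61, limma adjusted p = 0.304), and Dmc1, the meiotic strand-exchange protein, differed by 0.59 (limma adjusted p = 0.305). Prdm9, which marks hotspots, read 7.48, 7.10 and 7.48 against 6.63, 6.37 and 5.50 at 14 dpc without overlap or call (1.18, limma adjusted p = 0.127), and was called in the class-adjusted fit (limma adjusted p = 0.0473). Rpa1 and Rpa2, subunits of the general single-strand binding complex, differed by -1.05 and -1.42 without a call.

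Chromosome axis genes had 1 called fall and 0 rises in 16 measured members (median -0.10, but 0.02 after quantile normalization and 0.05 after housekeeping centring). Mei4, needed to place the breaks on the axis, read 4.12, 5.29 and 4.81 at 16 dpc, against 5.85, 7.82 and 7.20 at 14 dpc and 3.93 and 4.55 at 12 dpc (-2.22, SE 0.35, limma adjusted p = 0.00726). It was thus higher at 14 dpc than at either other age by its means, with the 16 and 14 dpc arrays not overlapping. The structural proteins were high at both ages. Sycp3 read 11.95, 11.50 and 11.93 at 16 dpc against 11.05, 11.06 and 9.66 at 14 dpc (1.20, limma adjusted p = 0.273), the meiotic cohesin Smc1b 11.83, 11.45 and 11.58 against 11.22, 11.41 and 10.18 (0.68, limma adjusted p = 0.295), and Hormad1 differed by 0.45 (limma adjusted p = 0.444). Array 3 was the lowest 14 dpc array for Sycp3, Smc1b and Hormad1.

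Crossover genes had 0 calls in 9 measured members. Their median of -0.38 was -0.01 after cyclic loess and -0.09 after quantile normalization, with 1 called higher in each, and 0.07 in the class-adjusted fit. Msh5, whose product clamps recombination intermediates with Msh4, read 7.80, 6.71 and 7.56 at 16 dpc, against 6.70, 5.95 and 5.76 at 14 dpc, and missed the threshold (1.22, limma adjusted p = 0.0626), while Msh4 differed by 0.74 (limma adjusted p = 0.263). The 16 and 14 dpc arrays of Msh5 and of Msh4 did not overlap, which held for 12% of all genes in that direction and 16.2% in the other.

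Meiotic entry genes had 0 calls in 11 measured members (median -0.51), and 1 was called higher after cyclic loess and after quantile normalization. Stra8, the gatekeeper of meiotic entry, read 8.91, 11.90 and 8.76 at 16 dpc, against 11.75, 12.11 and 10.95 at 14 dpc and 5.24 and 5.24 at 12 dpc. Arrays 1 and 3 lay about 2 log2 units or more below every 14 dpc array and array 2 lay among them, so the groups overlapped (-1.75, SE 0.52, limma adjusted p = 0.167). Without array 2 the difference was -2.77, a value given with no test, since that array was singled out for lying near 14 dpc. Meioc, which stabilises meiotic transcripts, read 8.43, 8.82 and 8.63 against 8.41, 9.71 and 8.83 at 14 dpc (-0.36, limma adjusted p = 0.411), and Rec8, the meiotic kleisin, differed by -0.71 (limma adjusted p = 0.285).

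The oocyte list had 1 rise and 1 fall in 27 measured members (median -0.05, but 0.10 after housekeeping centring). Figla, the transcription factor that later drives zona pellucida genes and follicle formation, read 7.51, 7.56 and 7.70 at 16 dpc, against 6.70, 6.73 and 5.34 at 14 dpc and 4.56 and 4.66 at 12 dpc (1.33, SE 0.26, limma adjusted p = 0.019). All 3 values at 16 dpc lay together, array 2 included. Sohlh2, a helix-loop-helix factor of early oocytes, went the other way, with 7.50, 9.44 and 7.30 at 16 dpc against 9.52, 9.92 and 9.57 at 14 dpc (-1.59, SE 0.34, limma adjusted p = 0.0361). Its partner Sohlh1 was low at both ages (5.37, 5.49 and 5.51 against 5.46, 6.19 and 6.02). Later oocyte genes were not called: Nobox differed by 0.51, Lhx8 by -0.10, Gdf9 by -0.01 and Zp3 by 0.22, and 15 of the 27 members were below the 40th percentile on all 6 arrays. Further called rises were Zfp541 (1.33), a zinc finger protein of meiotic chromatin in spermatocytes, Fmr1 (1.10), the RNA-binding protein lost in fragile X syndrome, and Spa17 (1.29), a protein first described in sperm. Stk33, a kinase, read 5.70, 4.09 and 5.68 at 16 dpc against 3.88, 3.91 and 3.53 at 14 dpc (1.38, SE 0.30, limma adjusted p = 0.0348).

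**Figure D2:**
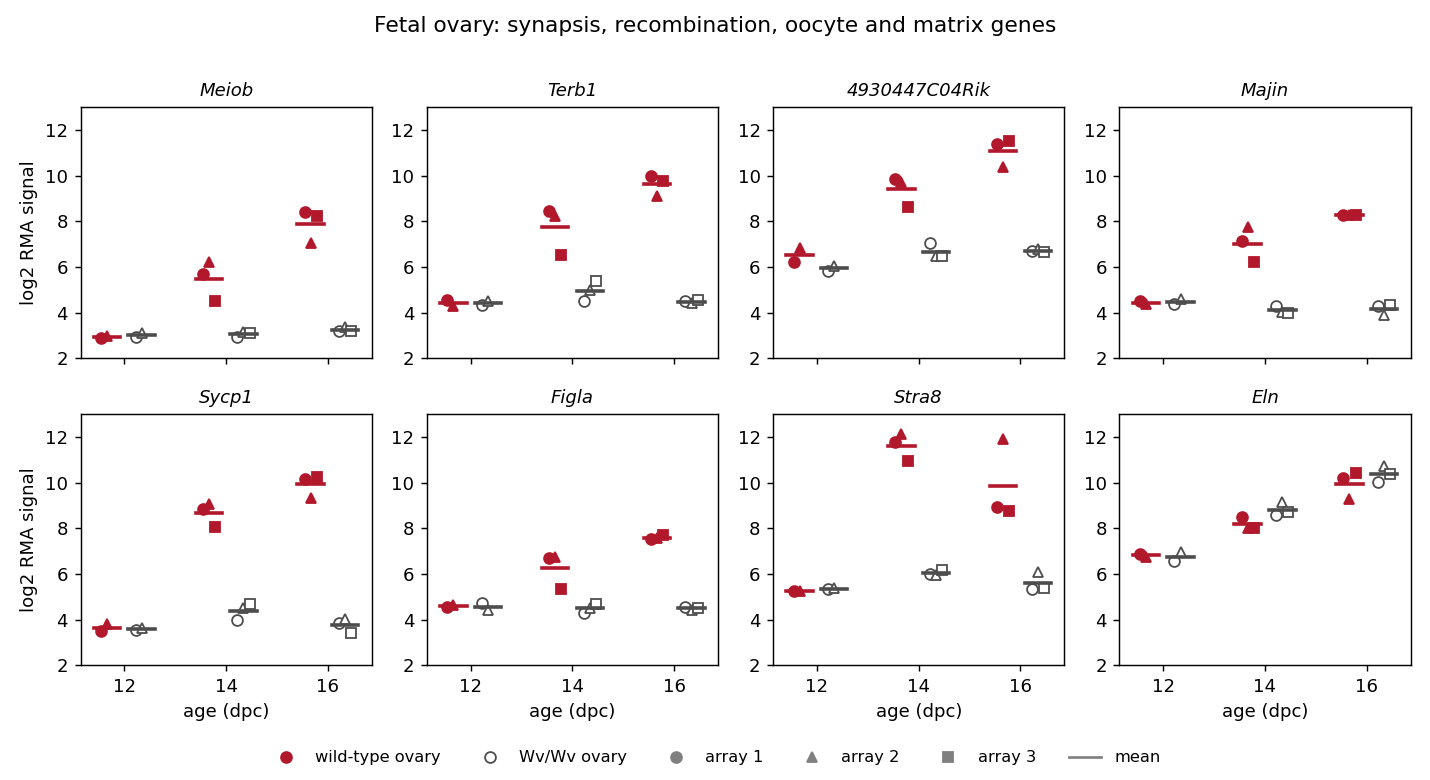
Log2 signal of 8 genes by age in dpc on each wild-type ovary array (filled red) and each Wv/Wv ovary array (open grey), with array number as marker and lines at the means. Meiob, Terb1, 4930447C04Rik, Majin and Figla are highest at 16 dpc in wild type, Stra8 has array 2 at 11.90 and its other 16 dpc arrays at 8.91 and 8.76, and Eln is as high in Wv/Wv as in wild-type ovaries.

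Somatic and extracellular genes gave few calls. Eln, which encodes elastin, read 10.20, 9.26 and 10.41 at 16 dpc, against 8.49, 8.02 and 8.02 at 14 dpc (1.78, SE 0.31, limma adjusted p = 0.0126), although its other probe set differed by 0.31. Col8a2, a short-chain collagen, read 8.09, 7.20 and 8.03 against 6.76, 5.78 and 6.24 at 14 dpc (1.51, SE 0.31, limma adjusted p = 0.0287). The list of collagens, laminins and basement membrane genes had 0 calls in 24 members, with a median of 0.26. After cyclic loess 3 were called higher (median 0.62) and after quantile normalization 2 (median 0.56). Of 32 lists, 24 had no called member among their 338 measured genes, which takes in retinoic acid, BMP and Wnt signals, DNA methylation, p53 targets and all lists of somatic cell types but that of Sertoli cells. Since only 0.357% of all genes were called, the absence of calls among 338 genes says little about these lists. The 26 pregranulosa markers had a median of -0.34, which was -0.02 after quantile normalization and of opposite sign after cyclic loess, at 0.04, and a mean level between 9.31 and 9.49 at 16 dpc and between 9.60 and 9.76 at 14 dpc. Wnt4, a female-determining signal, read 10.61, 10.73 and 10.58 at 16 dpc against 10.90, 10.92 and 11.22 at 14 dpc (-0.37, limma adjusted p = 0.55). A second probe set of Wnt4 differed by 0.38, with the opposite sign. The 16 interstitial stroma markers had a median of 0.24 and a mean level between 8.72 and 8.99 at 16 dpc and between 8.64 and 8.69 at 14 dpc. Their part in the rise of Eln and Col8a2 was not tested.

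Cell cycle genes were lower on average without a call. The 20 S phase genes had a median of -0.73 and the 21 M phase genes one of -0.58, and all 21 M phase differences were negative. Against the narrower 14 dpc array alone these medians were -0.33 and -0.40, and in the class-adjusted fit they were -0.30 and -0.23. After cyclic loess they were -0.49, with 1 S phase gene called lower, and -0.17, and after quantile normalization -0.49 and -0.22. Mki67, a proliferation marker, read 11.12, 11.15 and 11.79 at 16 dpc against 11.08, 11.76 and 11.89 at 14 dpc (-0.22, limma adjusted p = 0.768).

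**Figure D3:**
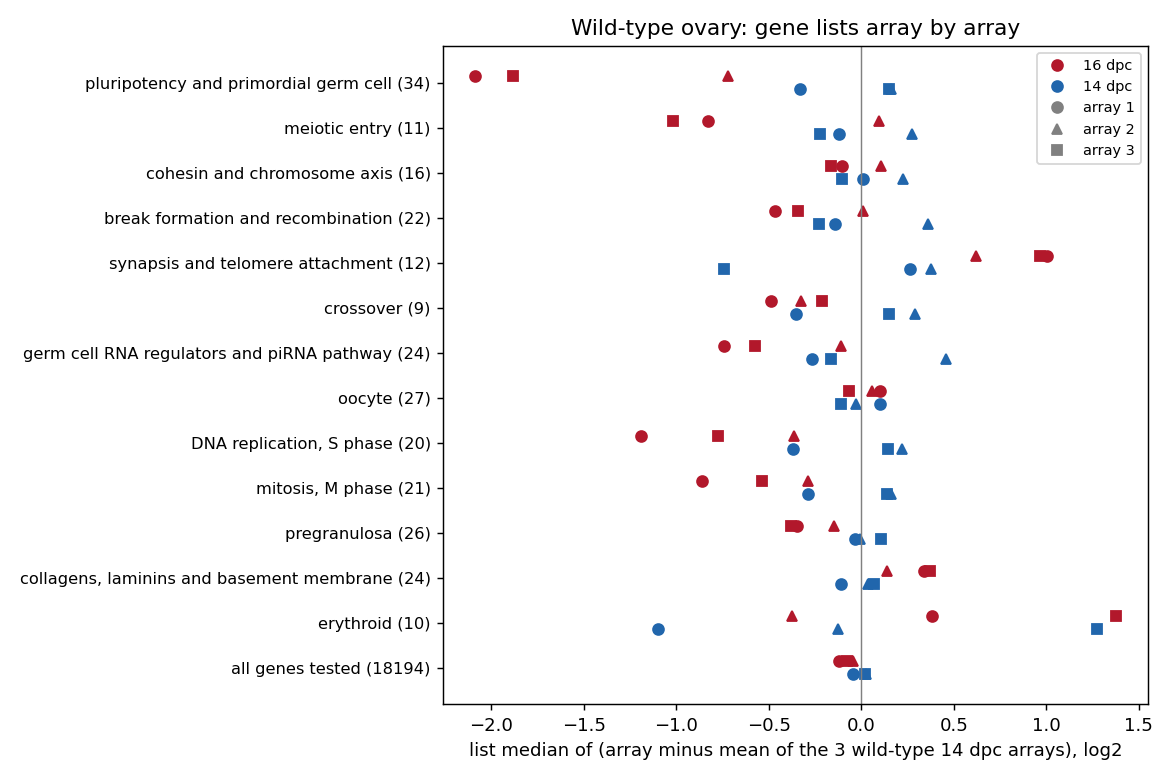
Median over each gene list (members measured in brackets) of the log2 signal on 1 array minus the mean of the 3 wild-type 14 dpc arrays, with 16 dpc arrays in red above the 14 dpc arrays in blue and array number as marker. The pluripotency list sits at -2.08, -0.72 and -1.88 on arrays 1 to 3 of 16 dpc, the synapsis list at 1.00, 0.62 and 0.97, and the erythroid list varies as much within an age as between ages.

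The same age step in Wv/Wv ovaries shows how these genes behave where germ cells are few. With limma 18 of 18194 genes were called there (0.0989%), 14 higher (0.0769%) and 4 lower (0.022%), and 0 of them were among the 65. With so few calls in both genotypes, an overlap of 0 says little about the 65. An unadjusted p below 0.05 was found for 939 genes, near the number that this threshold passes with no difference at all. For 35 of the 50 falls all Wv/Wv arrays at both ages were below the 40th percentile, a count given without its share over all genes. On the 6 wild-type arrays compared, 6022 of 18194 genes were below it throughout. Sox2 read 2.75, 3.27 and 2.91 in Wv/Wv ovaries at 16 dpc and 4.28, 3.31 and 2.75 at 14 dpc, and Meiob read 3.21, 3.39 and 3.18 at 16 dpc and 2.93, 3.16 and 3.09 at 14 dpc. Eln differed from this pattern. It read 10.00, 10.72 and 10.36 in Wv/Wv ovaries at 16 dpc against 8.56, 9.15 and 8.70 at 14 dpc, a difference of 1.56 (SE 0.31, limma adjusted p = 0.0505) beside 1.78 in wild type. Col8a2 differed by 1.50 in Wv/Wv ovaries (limma adjusted p = 0.0665) and by 1.51 in wild type.

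The difference between the genotypes was tested as an interaction, the age difference in wild type minus that in Wv/Wv. With limma 0 genes of 18194 (0%) were called and the smallest adjusted p was 0.248, while 3429 genes had an unadjusted p below 0.05. The interaction was 2.22 for Meiob and 2.36 for Terb1 (limma adjusted p = 0.248 each), -3.42 for Sox2 and -2.80 for Pou5f1 (0.262 each), and 0.22 for Eln and 0.02 for Col8a2 (0.729 and 0.977). Without array 2 of the wild-type 16 dpc ovaries 65 genes were called, 12 with a positive and 53 with a negative interaction, and without array 1 of the Wv/Wv 14 dpc ovaries 517 were. In Wv/Wv ovaries spread class ran the other way with age. There arrays 2 and 3 at 14 dpc were narrow, but only array 2 at 16 dpc. Class is thus partly confounded with this interaction. With the class term 998 genes had an unadjusted p below 0.05, or 1903 also without array 1 of the 16 dpc testes. Each of these fits called 0 genes. The median interaction over all genes was -0.165 with no class term, and -0.0012 and -0.073 in these fits. With array weights, whose iteration stopped before convergence, 10681 genes were called. In the unweighted fits at the full number of arrays no gene is shown to change differently in the genotypes.

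**Figure D4:**
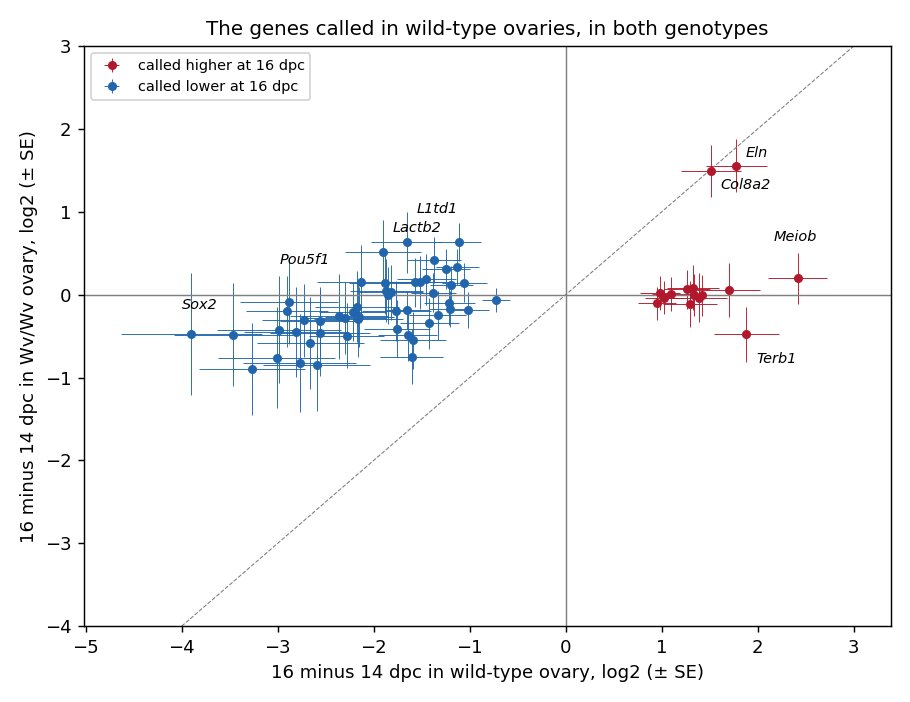
Difference of 16 minus 14 dpc (log2, ± SE) in wild-type ovaries (x axis) and in Wv/Wv ovaries (y axis) for the 65 genes called in wild type, with rises in red and falls in blue and the dashed line at equal differences. Most genes lie near 0 on the y axis, and Eln and Col8a2 lie near the dashed line with 1.56 and 1.50 in Wv/Wv ovaries.

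Against wild-type testes, where germ cells do not enter meiosis before birth, 23 genes had a called interaction of age with sex (0.126%), that is the age difference in ovaries minus that in testes, 14 positive (0.0769%) and 9 negative (0.0495%). That split was 24 and 22 after cyclic loess, 28 and 26 after quantile normalization and 2 and 34 after housekeeping centring. Among them were 2 of the 65 called genes of the ovary, Meiob (2.30, SE 0.43, limma adjusted p = 0.024) and Phlda2 (-3.50, SE 0.62, limma adjusted p = 0.0133); both comparisons use the same ovary arrays. After housekeeping centring the interactions of Meiob, Sycp1 and Smc1b were 2.01, 2.17 and 2.24 without a call, and Meiob lost its call without ovary array 1 or 3 of 16 dpc, without testis array 3 of 16 dpc and without any 1 of the testis arrays of 14 dpc (limma adjusted p between 0.0527 and 0.122). Phlda2 lost its call without ovary array 1 or 3 of 16 dpc or testis array 3 of 14 dpc (limma adjusted p between 0.05165 and 0.06247). Sycp1 lost its call without ovary array 3 of 16 dpc or testis array 3 of 14 dpc (limma adjusted p = 0.05048 and 0.05165). Meiob read 3.37, 3.24 and 3.14 in testes at 16 dpc and 3.21, 3.11 and 3.07 at 14 dpc, so that it was near the floor in testes at both ages. Sycp1 and Smc1b were also called, with interactions of 2.45 and 2.52. Smc1b read 6.00, 7.10 and 5.87 in testes at 16 dpc and 7.93, 8.26 and 8.30 at 14 dpc, a difference of -1.84 there beside 0.68 in ovaries.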

How the data were processed

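Total RNA (50 ng, per the labels' protocols) of whole gonads was copied into biotinylated cRNA with a 3′ in vitro transcription kit and hybridised to 31 arrays in 12 groups. The authors deposited log2 values made by RMA, per the submitters' processing notes; neither its version nor the set of arrays it was run on is named in those sources. The values were used as deposited, without further scaling. Of 45101 probe sets, 34958 had 1 gene symbol in the platform annotation, 932 several and 9211 none listed. Each of 18194 genes was represented by 1 probe set, the one with the highest average signal across all arrays. limma 3.58.1 in R 4.3.3 fitted 12 group means, and p-values were adjusted by Benjamini-Hochberg within each comparison; the 3 arrays in a group limit the precision. No pair of arrays in a group was a duplicate (27 pairs, smallest SD of the difference 0.179).

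By rule, the named genes were, among calls without overlap between the arrays, the 10 with the greatest rise and the 10 with the greatest fall, up to 6 called members of each list or its 2 largest changes, the 5 largest of each sign per interaction, and fixed genes of meiosis and germ cells. Other called genes, and uncalled partners of named genes, were chosen after their values were seen. The members and the 32 gene lists were chosen with earlier results of these data known. Alternatives covered scaling, array weights, the arrays in the fit, the spread class, filters, probe sets, the replicate block and each array left out. The class term with ovaries only was added after seeing the data. The fit was tested on simulated data. Promoters were searched on both strands over 250 bases before each start, and 200 bases are printed.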

Additional observations from a re-analysis of the deposited data

Results flagged for a closer look

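The age step differed between ovaries and testes of wild-type embryos for 23 genes by the interaction test, of which the 5 largest of each sign are given here. The largest negative interactions were those of genes that were higher in testes at 16 dpc. Piwil4, a piRNA-binding protein of fetal male germ cells, read 3.01, 3.26 and 3.23 in ovaries at 16 dpc and 3.44, 4.57 and 4.03 at 14 dpc. In testes it read 7.00, 9.22 and 8.05 at 16 dpc and 3.61, 4.52 and 5.02 at 14 dpc, so the interaction was -4.55 (limma adjusted p = 0.000105). Tdrd9, a helicase of the same pathway, gave -4.43, Nxf2, an RNA export factor of germ cells, -2.96, and Dnmt3l, the cofactor of de novo DNA methylation, -2.72. For these 3 genes the testis difference was 3.21, 3.27 and 3.02. Phlda2 (-3.50) was the 1 of the 5 whose distance came mainly from the ovary, where it differed by -2.73, against 0.78 in testes.

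The largest positive interactions belonged to genes that were lower in testes at 16 dpc. Pmaip1, a pro-apoptotic BH3 protein, read 3.87, 3.31 and 3.57 in ovaries at 16 dpc and 3.57, 3.51 and 3.77 at 14 dpc. In testes it read 4.72, 6.00 and 4.83 at 16 dpc and 8.57, 8.44 and 9.52 at 14 dpc, an interaction of 3.63 (limma adjusted p = 0.000377). Otx2, a homeobox factor, gave 2.74, Nts, the neurotensin precursor, 2.60, Smc1b 2.52 and Sycp1 2.45. Nts and Sycp1 moved in opposite directions, with 1.08 and 1.27 in ovaries and -1.52 and -1.18 in testes. All 3 testis arrays at 14 dpc and 2 of the 3 at 16 dpc were of the wider spread. With a class term 23 of the 23 genes were also called, or 22 with it and without array 1 of the 16 dpc testes. After cyclic loess and after quantile normalization 21 of the 23 were called each time. Housekeeping centring kept only 10 of the 23, and just 2 positive interactions were called there over all genes. With limma 0 were called on only the arrays compared.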

How the results depend on the processing

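The 65 calls rested on few arrays. Leaving out 1 of the 6 arrays compared gave 2 to 236 calls, the highest without array 2 of 16 dpc (all 65 kept) and the lowest without array 1 or 3 of 16 dpc or array 3 of 14 dpc; without arrays 1 and 2 of 14 dpc there were 161 and 8. With each array of the Wv/Wv ovaries and wild-type testes left out in turn, the counts ran between 56 and 239, the highest without array 1 of the 16 dpc testes (all 65 kept). Array weights, whose iteration stopped before convergence, called 10961 genes, cyclic loess 230, quantile normalization 168 and housekeeping centring 101. The class term called 114, or 230 without array 1 of the 16 dpc testes, and 2 with ovaries only (added later). With limma, 0 were called on only the arrays compared (5320 at an unadjusted p below 0.05) and 0 on narrow-spread arrays only (828 unadjusted). Of the 65, 61 were also called after cyclic loess, 58 after quantile normalization, 39 after housekeeping centring and 56 with the class term. Majin lost its call after cyclic loess, Sohlh2, Dusp9 and L1td1 after quantile normalization, and Dppa3, Rhox6, Rhox9, Tcl1, Gldc, Sohlh2, Fmr1, Zfp541 and Stk33 after housekeeping centring. Low-signal filtering (61 calls), a 2-fold minimum (62), a trended robust prior (67) and every probe set (88) were tried too. No named gene changed direction where it was called under any of these settings.

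The age by genotype interaction had 0 calls, but 10681 with array weights and 0 to 517 with 1 array left out. The highest came without array 1 of the Wv/Wv ovaries at 14 dpc, and without arrays 1 and 2 of the wild-type ovaries at 14 dpc there were 4 and 1. The age by sex interaction had 23 calls, against 8673 with array weights, 46 after cyclic loess, 54 after quantile normalization, 36 after housekeeping centring, 0 on only the arrays compared, 112 with the class term and 114 with it and without array 1 of the 16 dpc testes. Leaving out 1 array gave 12 to 57, the lowest without array 3 of the 14 dpc testes and the highest without array 1 of the 16 dpc testes; without ovary array 2 of 16 dpc there were 50. The narrow-spread setting gives this interaction no value, since no 14 dpc testis array is narrow. The causes were not tested.

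The replicate numbers were not used to pair the arrays, since the labels do not say that they mark a shared litter or day. Same-numbered 16 and 14 dpc arrays of wild-type ovaries correlated at 0.306, 0.282 and 0.0789 in their deviations from the group means. With the replicate block 63 genes were called for age, 17 for age by sex and 0 for age by genotype. As a hint from the data, each 16 dpc array of the wild-type ovaries correlated best with its own number, which did not hold in Wv/Wv ovaries or wild-type testes. The hint is weak, since array 1 had the lowest SD over probe sets at both ages (2.06 and 2.18). A shared number and a shared spread cannot be told apart there, and array 3 correlated at only 0.0789. Low signal limits the size of 16 of the 50 falls and 5 of the 15 rises. All 3 arrays of 16 dpc and 1 of the 3 of 14 dpc are narrow in spread, so class and age are partly confounded.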

Other observations

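The 10 erythroid markers varied between arrays of an age. Their median, relative to the 14 dpc mean, was 0.38, -0.37 and 1.38 on arrays 1 to 3 of 16 dpc, and -1.10, -0.13 and 1.27 on those of 14 dpc. Hemgn, a nuclear protein of erythroid cells, read 10.28, 8.19 and 10.94 at 16 dpc and 7.37, 8.88 and 10.58 at 14 dpc, so the ages overlapped. Slc4a1, the band 3 anion exchanger of red cells, read 9.55, 8.23 and 10.50 at 16 dpc and 7.70, 8.83 and 10.70 at 14 dpc. Array 3 was the highest of its age for both genes at both ages.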
